A study of Austrofundulus limnaeus and Nothobranchius furzeri and Aphyosemion australe with 30 samples.

Results

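One month of diapause was compared with 6 days of diapause in embryos of the South American killifish (*Austrofundulus limnaeus*), over all 68977 consensus peaks of accessible chromatin. The comparison used 5 of the 30 samples of the series: 2 libraries at 1 month (Dia 1m, replicates 2 and 3) and 3 libraries at 6 days (Dia 6d, replicates 1, 2 and 3). The libraries were those whose column of values matched the label of 1 sample only. Dia 1m embryos had been in diapause for 1 month and were checked under a stereoscope for an absent or nearly absent heartbeat. Dia 6d embryos were at day 6 of diapause, with a heart rate that had fallen since the onset. All embryos were wild type (Quisiro strain) and untreated, and each library came from a pool of dissected whole embryos. Nothing in the labels says that the pools came from separate parents, so the p-values measure the spread between these samples, which may be technical. The same table holds 2 libraries of developing embryos (Dev) and 2 of embryos at the stage before diapause that still carried a Kupffer's vesicle (Pre-Dia). These 4 libraries entered the fit to share the estimate of the spread and served as the background of each peak. According to the paper, Pre-Dia embryos came from first clutches of young parents and were mostly bound for development, not for diapause.

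Diapause is a programmed arrest that lets embryos of annual killifish survive months without water. Growth and cell division stop after the body plan is laid down, the heartbeat slows, and metabolism drops. ATAC-seq measures accessible chromatin, since the Tn5 transposase inserts sequencing adapters where DNA is not covered by nucleosomes, and such peaks mark promoters and enhancers. Comparing a late with an early point of the arrest asks whether the accessible regions change while the embryo waits.

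The values are reads per consensus peak divided by a size factor per library, and they are called normalised reads here. Libraries held 8.09 and 8.81 megareads in peaks at Dia 1m, and 7.62, 8.38 and 6.40 megareads at Dia 6d, with a median of 49 to 65 reads per peak. No peak was listed at 0 in any library. The lowest value in a library is that of 1 read, and 63 peaks stood at this floor in at least 1 diapause library. Whether the floor stands for 0 reads is not given in the sources used here.

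The 5 diapause libraries did not fall into their stages when all peaks were weighed together. Component 1 of a principal component analysis held 44.2% of the variance and set Dia 1m replicate 2, with a score of 120.7, apart from the rest. Dia 1m replicate 3 scored -0.58, beside Dia 6d replicate 1 at -1.11, and Dia 6d replicates 2 and 3 scored -69.5 and -49.5. Pairs of libraries showed the same grouping. The 2 Dia 1m libraries differed over 2-fold, on the log2(value + 1) scale, at 7737 peaks (11.2%), against 2726 (3.95%) to 4622 (6.70%) for pairs of Dia 6d libraries. Dia 1m replicate 2 was closest to Dia 6d replicate 1, with 7400 peaks (10.7%) over 2-fold apart. Dia 1m replicate 3 was closest to the same library, with 3311 peaks (4.80%) over 2-fold apart and a Pearson correlation across peaks of 0.92. That correlation was 0.87 between the 2 Dia 1m libraries and 0.90 to 0.92 between Dia 6d libraries, and it describes peaks, which are not independent replicates. Results that rest on Dia 1m replicate 2 are therefore given below with each Dia 1m library on its own.

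**Figure D1:**
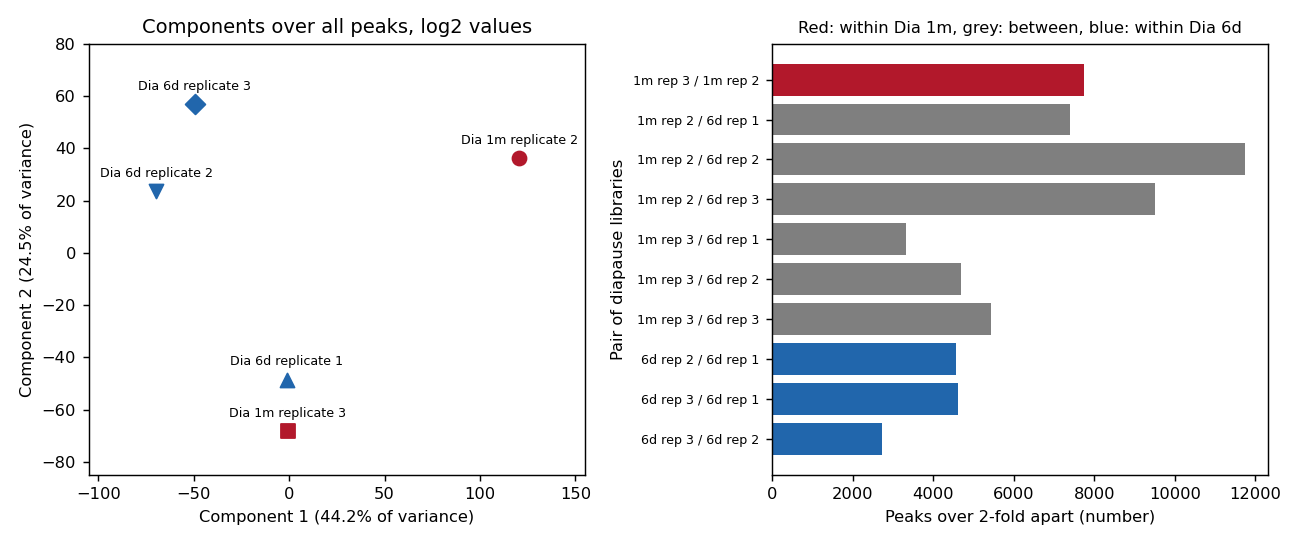
Left, scores of the 5 diapause libraries on components 1 (44.2% of the variance) and 2 (24.5%) over the log2 values of all peaks, red for Dia 1m and blue for Dia 6d. Right, number of peaks over 2-fold apart in each pair of diapause libraries, from 2726 for Dia 6d replicates 3 and 2 to 11737 for Dia 1m replicate 2 and Dia 6d replicate 2. Dia 1m replicate 2 lies apart, and Dia 1m replicate 3 lies beside Dia 6d replicate 1.

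At 1 month, 19 peaks were higher (0.0275%) and 14 peaks lower (0.0203%) than at 6 days, together 33 peaks or 0.0478% of those tested (limma, Benjamini-Hochberg adjusted p under 0.05 over all peaks). The median log2 difference over all peaks was 0.00, with quartiles of -0.26 and 0.29, and 1911 peaks differed by over 1 on the log2 scale. At an unadjusted p under 0.05 there were 5297 peaks (7.68%), 3447 higher (5%) and 1850 lower (2.68%). After quantile normalization this excess of higher peaks shrank to 2757 against 2006. The excess was slight with Dia 1m replicate 2 as the only 1-month library. With replicate 3 as the only one, lower peaks outnumbered higher peaks. Both Dia 1m libraries lay above every Dia 6d library at 9583 peaks (13.9%) and below every one at 7733 (11.2%), so separation of the 5 libraries by itself was common. The count of calls moved over 1.5 times with single libraries. Without Dia 1m replicate 2 limma called 0 peaks, with 1998 at an unadjusted p under 0.05, and without Dia 1m replicate 3 it called 228. It called 90 without Dia 6d replicate 1 and 12 without Dia 6d replicate 2. The libraries that enter only through the spread moved it too: to 15 when Dev replicate 1.5 was left out, to 14 for Dev replicate 2, to 222 for Pre-Dia replicate 1.5 and to 236 for Pre-Dia replicate 2. All 33 differences kept their sign under each of the 22 alternatives. The stages were separated at 18 of the 19 higher and 14 of the 14 lower peaks, so leaving out a library could not reverse those. The split of the calls was 12 higher and 15 lower after quantile normalization. In pools of whole embryos, fewer cells with an open region and less opening per cell cannot be told apart.

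At 4 of the higher peaks, described here, both Dia 1m libraries were close together and above every Dia 6d library. At peak_59689 the gap to the nearest Dia 6d library was under 2-fold, and the Dia 6d libraries were themselves spread. The Dia 1m libraries were also close together at peak_24271, given further below. At peak_60169 (scaffold NW_013954341.1, 31503 to 31891, 389 bp) Dia 1m libraries held 407 and 406 normalised reads and Dia 6d libraries 140, 108 and 96.8, while Dev libraries held 40.9 and 46.3 and Pre-Dia libraries 145 and 136. The late libraries thus agreed within a few reads and stood above every other library of the table. The log2 difference was 1.83 (SE 0.32, limma adjusted p = 0.0030), and it was 1.84 and 1.83 with Dia 1m replicates 2 and 3 taken singly. At peak_59689 (NW_013954241.1, 18677 to 19588, 912 bp) Dia 1m libraries held 862 and 868 normalised reads and Dia 6d libraries 473, 233 and 180. Dev libraries held 74.1 and 80.3 and Pre-Dia libraries 82.2 and 128. This wide peak was thus weakest in Dev and Pre-Dia libraries, intermediate at 6 days and highest at 1 month (log2 difference 1.67, SE 0.33, limma adjusted p = 0.017). At peak_39038 (NW_013952833.1, 191769 to 192196) Dia 1m libraries held 192 and 175 normalised reads, against 72.6, 43.1 and 50.3 in Dia 6d, with 18.7 to 32.9 in the 4 Dev and Pre-Dia libraries. This is the same order of stages as at peak_59689 (log2 difference 1.75, SE 0.37, limma adjusted p = 0.048). At peak_62948 (NW_013955113.1, 14305 to 14644) Dia 1m libraries held 106 and 94.5 normalised reads and Dia 6d libraries 27.9, 27.2 and 23.9. Here the 6-day libraries were the tightest of the called peaks relative to their level, and the Dev and Pre-Dia libraries (21.9 to 61.3) reached above them (log2 difference 1.89, SE 0.40, limma adjusted p = 0.045). These 4 were past the threshold in 20, 13, 10 and 9 of the 22 alternatives, and none of them without Dia 1m replicate 2, where the adjusted p ranged from 0.38 to 1.00.

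The largest differences among the higher peaks rested on Dia 6d libraries near the floor. The 2 peaks of the short scaffold NW_013955335.1 were both called. At peak_63437 (281 to 568) Dia 1m libraries held 96.6 and 57.7 normalised reads, against 13.4 in Dia 6d replicate 1 and the value of 1 read, 0.94 and 1.26, in replicates 2 and 3. At peak_63438 (4318 to 4524) Dia 1m libraries held 117 and 45.7, against 23.4, 0.94 and 1.26 in Dia 6d. Both were clear of Dia 6d, and at both the Dev libraries were also low, with 2.90 to 11.1 normalised reads. Pre-Dia libraries held 24.8 to 68.5, and at each peak the higher of them was above Dia 1m replicate 3. The log2 differences were 4.25 (SE 0.88) and 3.97 (SE 0.83), each with a limma adjusted p of 0.034, and they ranged from 2.58 to 5.18 and from 2.39 to 5.15 over the alternatives. The same floor in Dia 6d replicates 2 and 3 was seen at peak_41452 (NW_013952901.1, 9301 to 9485), where Dia 1m libraries held 143 and 33.8 and Dia 6d replicate 1 held 23.4 (log2 difference 3.90, SE 0.77, limma adjusted p = 0.019). Dev libraries held 18.7 and 6.52 normalised reads at this peak and Pre-Dia libraries 90.5 and 37.2, which is in the range of the 1-month embryos.

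At peak_64600, peak_41644, peak_50247, peak_22098 and peak_65247, Dia 6d replicates 2 and 3 were below every Dev and Pre-Dia library. Dia 6d replicate 1 was below them only at peak_64600. It was within the Dev and Pre-Dia range at peak_41644 (18.7 to 104), peak_50247 (103 to 180), peak_22098 (42.0 to 123) and peak_65247 (323 to 1121). At peak_64600 (NW_013956163.1, 1527 to 1797) Dia 1m libraries held 210 and 72.6 normalised reads and Dia 6d libraries 23.4, 12.2 and 3.77. Dev libraries held 82.6 and 124 and Pre-Dia libraries 208 and 205, so that the 6-day embryos were the lowest of the 4 stages. Its log2 difference was 3.43 (SE 0.43), with the smallest limma adjusted p of all peaks, 1.2e-05. At peak_41644 (NW_013952905.1, 37100 to 37788) Dia 1m libraries held 350 and 124 normalised reads and Dia 6d libraries 56.9, 13.1 and 8.80 (log2 difference 3.39, SE 0.48, limma adjusted p = 8.2e-05). At peak_50247 (NW_013953241.1, 6637 to 7168) Dia 1m libraries held 366 and 221 and Dia 6d libraries 135, 15.0 and 37.7 (log2 difference 2.70, SE 0.43, limma adjusted p = 8.1e-04). In each of these the 2 Dia 1m libraries were apart, replicate 2 being the higher, and Dia 6d replicate 1 was the nearest to them. At peak_22098 (NW_013952565.1, 23098 to 23638) the gap nearly closed, with 219 and 59.7 normalised reads in Dia 1m against 55.8, 20.6 and 1.26 in Dia 6d (log2 difference 3.04, SE 0.59, limma adjusted p = 0.017). Only peak_65247 (NW_013957177.1, 11272 to 11490) overlapped between stages, with 1117 and 403 normalised reads in Dia 1m and 414, 131 and 102 in Dia 6d (log2 difference 1.92, SE 0.37, limma adjusted p = 0.017).

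The other higher peaks had log2 differences of 1.52 to 2.35. Strongest in reads was peak_10021 (NW_013952450.1, 2342984 to 2343257), a narrow peak of 274 bp with 2621 and 1797 normalised reads in Dia 1m and 1019, 558 and 732 in Dia 6d. Dev and Pre-Dia libraries held 317 to 848, a range that overlaps the 6-day libraries and lies below both 1-month libraries (log2 difference 1.54, SE 0.30, limma adjusted p = 0.016). At peak_24271 (NW_013952587.1, 472505 to 472651) Dia 1m libraries held 204 and 170 normalised reads, against 98.3, 33.7 and 26.4 in Dia 6d and 15.2 to 21.9 in Dev and Pre-Dia libraries. Like peak_59689 and peak_39038, it was above every Dev and Pre-Dia library already at 6 days and higher again at 1 month (log2 difference 2.04, SE 0.42, limma adjusted p = 0.034). At peak_19455 (NW_013952532.1, 645842 to 646183) Dia 1m libraries held 396 and 172, and Dia 6d libraries 77.0, 70.2 and 45.3, with 52.8 to 85.0 in Dev and Pre-Dia libraries. This peak was past the threshold in 20 of the 22 alternatives, as was peak_60169 (log2 difference 2.04, SE 0.35, limma adjusted p = 0.0031). At peak_28936 (NW_013952652.1, 577819 to 578184) Dia 1m libraries held 217 and 133 and Dia 6d libraries 64.8, 59.0 and 51.5, below the 101 to 137 of Dev and Pre-Dia libraries. The remaining members, peak_31020, peak_56949 and peak_25078, had 74.6 to 776 normalised reads in Dia 1m and 13.1 to 260 in Dia 6d, with no overlap at any of them.

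As a group, the 19 higher peaks had their Dia 1m mean above all Dev and Pre-Dia libraries at 16 peaks (84.2%), against 24.4% of all peaks. This held at 76.3% of the 3447 peaks higher at an unadjusted p under 0.05. Peaks picked for high Dia 1m values favour such a position by their choice. The mean is raised by Dia 1m replicate 2, which was above all Dev and Pre-Dia libraries at these 16 peaks. It was also above them at peak_41452 and, by a narrow gap, at peak_64600. Among the 16, Dia 1m replicate 3 alone was below the highest Dev or Pre-Dia library at peak_63437, peak_63438, peak_22098, peak_31020, peak_56949 and peak_28936. At peak_22098, for example, it held 59.7 normalised reads, against 123 in Pre-Dia replicate 2. The Dia 6d mean of the 19 lay within the Dev and Pre-Dia range at 9, below it at 7 and above it at 3. Both Dev libraries lay below both Pre-Dia libraries at 14 of the 19 (73.7%), against 18.4% of all peaks. It was 39.2% of the 3447 peaks higher at an unadjusted p under 0.05. These libraries entered the spread but not the difference itself. The opposite order, both Pre-Dia libraries below both Dev libraries, held at 1 of the 19 (5.26%), against 16.7% of all peaks. Among the 14 lower calls, Pre-Dia lay above Dev at 0 and below it at 2. Whether the choice of peaks by their spread plays a part was not tested. The libraries of each diapause stage were ordered in the same way at nearly all of the 19. Dia 1m replicate 2 was above replicate 3 at 18 of 19, against 51.1% of all peaks, and Dia 6d replicate 1 was the highest 6-day library at 19 of 19, against 37.9% of all peaks. Over all peaks, this 6-day library was the closest to both Dia 1m replicate 2 and Dia 1m replicate 3. The part of this likeness in the calls was not tested.

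**Figure D2:**
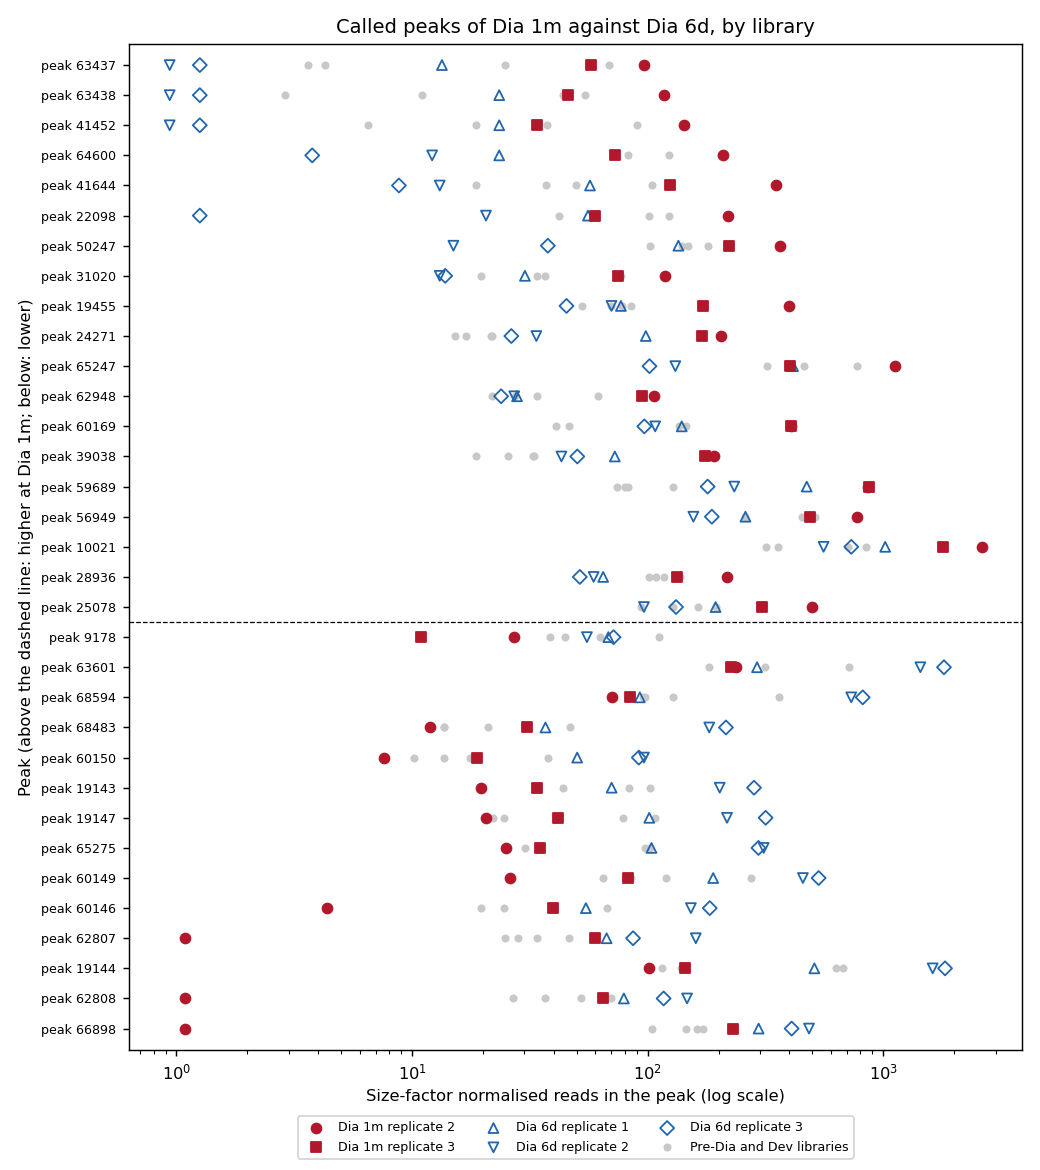
Normalised reads (log axis) at the 33 called peaks, 1 row a peak, ordered by log2 difference with the 19 higher peaks above the dashed line and the 14 lower peaks under it. Filled red marks are Dia 1m libraries, open blue marks Dia 6d libraries and grey dots the 4 Dev and Pre-Dia libraries; the stages overlap at peak_65247 only, and Dia 1m replicate 2 stands at the floor of 1 read at peak_62807, peak_62808 and peak_66898.

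The 14 lower peaks lay on 9 scaffolds, and 8 of them shared 3 scaffolds, while the 19 higher peaks lay on 18. On scaffold NW_013952529.1, 3 of the 14 lay within 32.9 kb. At its strongest, peak_19144 (764461 to 765700, 1240 bp), Dia 1m libraries held 101 and 144 normalised reads and Dia 6d libraries 510, 1621 and 1829. The 1-month libraries were below every 6-day library by a wide gap, and Dia 6d replicate 1 was the lowest of its stage (log2 difference -3.24, SE 0.45, limma adjusted p = 8.2e-05). The neighbour peak_19143 (762594 to 762812) held 19.5 and 33.8 normalised reads in Dia 1m and 70.3, 202 and 283 in Dia 6d. At the far end, peak_19147 (794567 to 795537) held 20.6 and 41.8 in Dia 1m and 102, 217 and 317 in Dia 6d. Their log2 differences were -2.58 (SE 0.45, limma adjusted p = 0.0035) and -2.66 (SE 0.45, limma adjusted p = 0.0028). All 5 peaks of this stretch had lower values at 1 month, although peak_19145 and peak_19146, between the called ones, did not pass the threshold (log2 differences -1.38 and -1.44, limma adjusted p = 0.23 and 0.22). Just outside it, peak_19142 and peak_19148 stood at -1.15 and -1.29 without passing, followed outward by peak_19141 at -0.46 on one side and by peak_19149 at -0.55 and peak_19150 at -1.25 on the other. Beyond these, peak_19140 and peak_19151 stood at 0.26 and -0.13. The median over the 147 peaks of the scaffold was -0.18.

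The second cluster lay on scaffold NW_013954337.1, where 3 of 13 peaks were called within 3.81 kb. At peak_60149 (8209 to 9246, 1038 bp) Dia 1m libraries held 26.1 and 82.5 normalised reads and Dia 6d libraries 190, 456 and 532 (log2 difference -2.92, SE 0.42, limma adjusted p = 8.2e-05). At peak_60146 (6237 to 6581) Dia 1m libraries held 4.34 and 39.8 and Dia 6d libraries 54.7, 153 and 184 (log2 difference -2.98, SE 0.52, limma adjusted p = 0.0034). At peak_60150 (9885 to 10049) they held 7.60 and 18.9, against 50.2, 96.5 and 91.8 in Dia 6d (log2 difference -2.56, SE 0.53, limma adjusted p = 0.031). Between and before them, peak_60144, peak_60145, peak_60147 and peak_60148 had differences of -1.27 to -2.61 that did not pass. The last 3 peaks of the same scaffold, peak_60154 to peak_60156, had positive differences of 0.68 to 0.99 that did not pass, so the lower values ended within the scaffold.

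**Figure D3:**
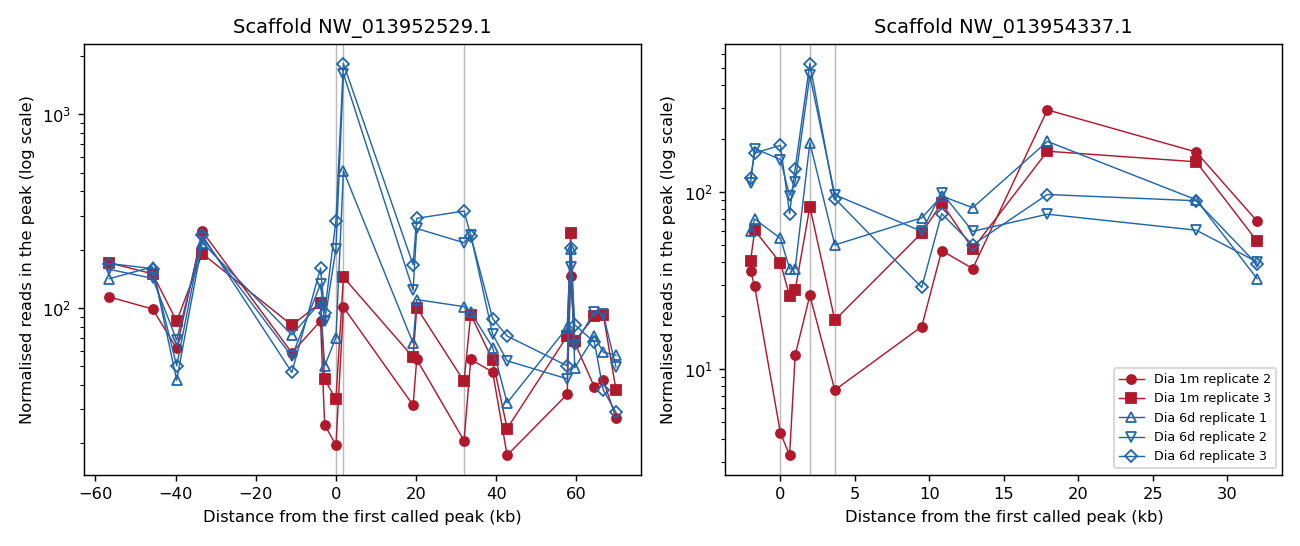
Normalised reads (log axis) of the peaks along the scaffolds with 3 called peaks each, by distance in kb from the first called peak, with red lines for Dia 1m libraries and blue lines for Dia 6d libraries; vertical grey lines mark called peaks. Dia 1m libraries lie below Dia 6d libraries around the called peaks, Dia 6d replicates 2 and 3 being the highest, and the lines mix further along each scaffold.

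A group of 7 lower peaks shared a pattern over the Dev and Pre-Dia libraries as well. They were the 6 called peaks of both clusters and peak_65275 (NW_013957228.1, 2998 to 3324), which held 25.0 and 34.8 normalised reads in Dia 1m and 104, 311 and 295 in Dia 6d (log2 difference -2.81, SE 0.42, limma adjusted p = 2.6e-04). These are the 7 of the 14 lower calls (50%) at which both replicate 1.5 libraries lay below both replicate 2 libraries, whatever their stage. That order held at 0 of the 19 higher calls, at 18.6% of the 1850 peaks lower at an unadjusted p under 0.05 and at 14.5% of all peaks, and 6 of the 7 come from 2 stretches of neighbouring peaks. At peak_19144, for example, Dev libraries held 139 (replicate 1.5) and 675 (replicate 2) and Pre-Dia libraries 115 and 631. At peak_65275 Dev libraries held 34.9 and 102 and Pre-Dia libraries 30.2 and 97.4. The part of this split between replicate numbers in the calls was not tested.

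At 3 lower peaks Dia 1m replicate 2 alone stood at the floor. The scaffold NW_013955060.1 holds peak_62807 (94 to 369), with 1.09 normalised reads in Dia 1m replicate 2 and 59.7 in replicate 3, against 67.0, 160 and 86.8 in Dia 6d. It also holds peak_62808 (7494 to 7668), with 1.09 and 64.6 in Dia 1m and 79.3, 147 and 117 in Dia 6d. The third is peak_66898, the only peak of NW_013960269.1 (1222 to 1797), with 1.09 and 230 in Dia 1m and 296, 484 and 409 in Dia 6d. Dia 1m replicate 3 lay just under the lowest 6-day library at each of them. Without Dia 1m replicate 2 the log2 differences were -0.70, -0.77 and -0.75, in place of -3.13 (SE 0.61), -3.26 (SE 0.60) and -4.15 (SE 0.69) with it (limma adjusted p = 0.017, 0.0084 and 0.0017 with both libraries).

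At another 3, the stages differed through Dia 6d replicates 2 and 3. At peak_63601 (NW_013955411.1, 7253 to 7708) Dia 1m libraries held 237 and 226 normalised reads and Dia 6d libraries 291, 1438 and 1810.5. At peak_68594 (NW_013973379.1, 4 to 241) they held 70.6 and 84.5, against 92.7, 731 and 818 in Dia 6d. At peak_68483 (NW_013971203.1, 14 to 208) they held 11.9 and 30.8, against 36.8, 183 and 215 in Dia 6d. Dia 6d replicate 1 lay just above the 1-month libraries each time, and peak_68594 and peak_68483 are the only peaks of their scaffolds. The log2 differences were -1.98, -2.29 and -2.50 (limma adjusted p = 0.044, 0.031 and 0.024).

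The remaining lower peak, peak_9178 (NW_013952444.1, 2713418 to 2713833), held 27.1 and 10.9 normalised reads in Dia 1m and 68.1, 55.3 and 71.7 in Dia 6d, with a tight 6-day stage. Dia 1m replicate 3 was the lower of its stage, as at peak_63601, whereas replicate 2 was the lower at the other 12. Dev libraries held 112 and 63.0 and Pre-Dia libraries 38.4 and 44.4, so both 1-month libraries were below every other library of the table. The log2 difference was -1.84 (SE 0.40, limma adjusted p = 0.0495, the nearest to the threshold of all calls), and the peak was past the threshold in 8 of the 22 alternatives.

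Over the 14 lower peaks, the Dia 6d mean was above all Dev and Pre-Dia libraries at 13 (92.9%), against 21% of all peaks, and the Dia 1m mean was within their range at 10 and below it at 4. Peaks picked for high Dia 6d or low Dia 1m values favour such positions by their choice. Dia 6d replicate 1 alone was below the highest Dev or Pre-Dia library at peak_63601, peak_68594, peak_68483, peak_19143, peak_19147, peak_60149, peak_60146 and peak_19144. At peak_62807 and peak_66898 the Dia 1m mean was within the range, but neither Dia 1m library was. Replicate 2 held 1.09 normalised reads at both, and replicate 3 held 59.7 and 230. The wider list of 1850 peaks lower at an unadjusted p under 0.05 had another make-up, with the Dia 6d mean above all Dev and Pre-Dia libraries at 36.9% and the Dia 1m mean below all of them at 54.4% and within their range at 41.5%. Dia 6d replicate 1 was the lowest 6-day library at 13 of 14, against 35.1% of all peaks, and Dia 1m replicate 2 was below replicate 3 at 12 of 14, against 48.9%. Of the lower peaks 50%, and of the higher peaks 36.8%, were on scaffolds with under 10 peaks, which hold 17.3% of all peaks.

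Calls and wide separation picked the same peaks only in part. Both Dia 1m libraries were over 2 times the highest Dia 6d library at 47 peaks (0.0681%) and under 0.5 times the lowest at 43 peaks (0.0623%), and 9 and 7 of these were among the calls. Others missed the threshold, and 4 of them are named here, chosen after their values were seen. At peak_16499 (NW_013952503.1, 1706399 to 1707002) Dia 1m libraries held 341 and 318 normalised reads and Dia 6d libraries 134, 136 and 153 (log2 difference 1.22, limma adjusted p = 0.13). At peak_62883 (NW_013955086.1, 11375 to 11873) Dia 1m libraries held 299.7 and 401 and Dia 6d libraries 147, 105 and 98.1 (log2 difference 1.58, limma adjusted p = 0.055). At peak_61731 (NW_013954729.1, 12223 to 12704) Dia 1m libraries held 42.3 and 42.8 and Dia 6d libraries 117, 106 and 116 (log2 difference -1.39, limma adjusted p = 0.17). At peak_25545 (NW_013952605.1, 169003 to 169373) they held 35.8 and 37.8, against 125, 97.4 and 83.0 in Dia 6d (log2 difference -1.42, limma adjusted p = 0.16). At all 4 the stages were clear of each other, by more than the libraries of either stage differed. In this fit the spread of a peak comes partly from peaks of like strength and from the Dev and Pre-Dia libraries.

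Stronger peaks tended to be higher at 1 month with the authors' size factors. Peaks were divided into 10 bins of equal size by their mean log2 value in the 4 Dev and Pre-Dia libraries, which do not enter the difference. In the strongest bin (6898 peaks) 795 peaks (11.5%) were higher and 47 (0.681%) lower at an unadjusted p under 0.05, and the median log2 difference was 0.13. In the weakest bin 235 (3.41%) were higher and 193 (2.80%) lower, with a median of -0.04. Each Dia 1m library showed this at the strong end on its own, with medians of 0.15 (replicate 2) and 0.13 (replicate 3) against the Dia 6d mean, and the 2 libraries split at the weak end, at -0.09 and 0.08. The median of the strongest bin was between 0.09 and 0.17 when any 1 diapause library was left out and 0.10 with TMM factors, but -0.04 after quantile normalization, where 369 were higher and 207 lower. Without Dia 1m replicate 2 the higher peaks of this bin numbered 132, without Dia 6d replicate 2 they numbered 268 and without Dia 6d replicate 3 they numbered 404. The sign of this median thus held with TMM factors but not after quantile normalization, which sets all libraries to a common distribution and can remove such a shift.

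**Figure D4:**
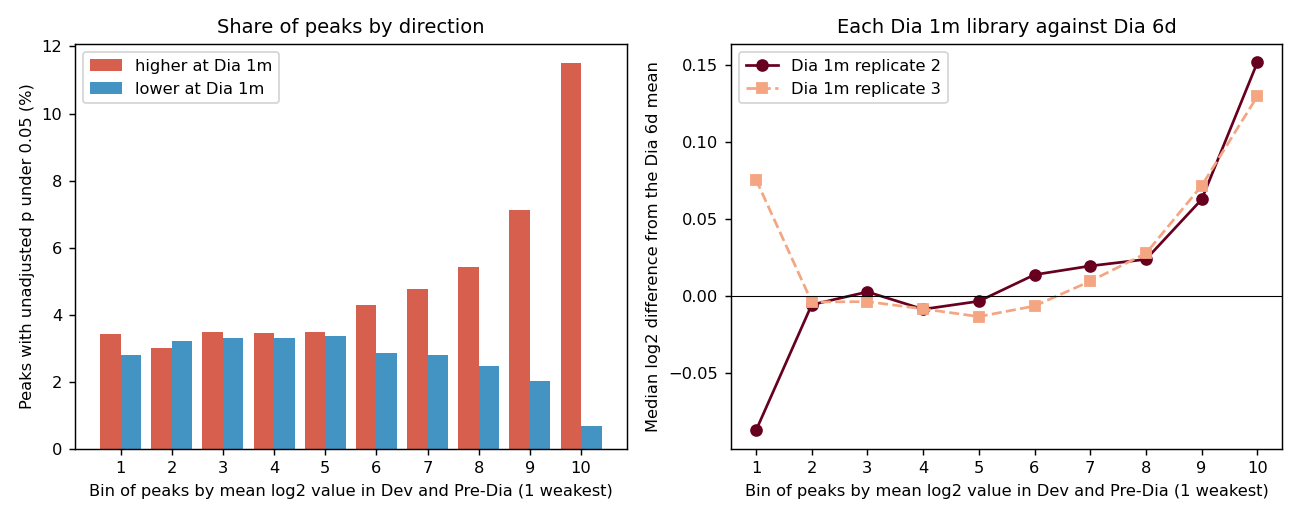
The peaks in 10 bins by mean log2 value in Dev and Pre-Dia libraries. Left, percent of peaks higher (red) or lower (blue) at Dia 1m with an unadjusted p under 0.05, rising to 11.5% higher in the strongest bin. Right, median log2 difference of each Dia 1m library from the Dia 6d mean, 0.15 and 0.13 in the strongest bin with the authors' size factors.

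Peaks that lie next to each other tended to differ together. Of the 30 called peaks with another peak on their scaffold, the nearest peak had a difference of the same sign at 24, namely 15 of 19 higher and 9 of 11 lower peaks, against 55.8% of all peaks. These include peak_63437 with peak_63438, peak_19143 with peak_19144 and peak_60149 with peak_60150, each counted from both sides. Some matching neighbours had differences near 0, such as 0.03 at peak_22099 and 0.05 at peak_65246. Apart from the pair on NW_013955335.1, the neighbours of higher peaks had smaller differences than the called peaks: the highest was peak_64599 at 1.14, then peak_19454 at 0.83 and peak_60170, 0.11 kb from peak_60169, at 0.79. Across all adjacent pairs the Pearson correlation of the log2 difference was 0.28 for the 8703 pairs under 1 kb apart, 0.17 for 19329 pairs at 1 to 5 kb and 0.11 for 23356 pairs at 5 to 20 kb. The difference between the 2 Dia 1m libraries, which share a stage, was more alike between neighbours, with 0.42, 0.34 and 0.29 over the same pairs, and that between Dia 6d replicates 2 and 3 less, with 0.12, 0.09 and 0.07. These values describe pairs of peaks from the same libraries.

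Summed over scaffolds with at least 10 peaks, 0 of 1249 scaffolds passed the threshold (limma, lowest adjusted p 0.34), with 140 (11.2%) at an unadjusted p under 0.05, of which 134 (10.7%) were higher and 6 (0.48%) lower at 1 month. With the mean log2 value over the peaks in place of the sum, 45 scaffolds were at an unadjusted p under 0.05. Among the lowest p were NW_013953559.1 (11 peaks), with 2684 and 2265 normalised reads in Dia 1m and 1896, 1360 and 1563 in Dia 6d, and NW_013952658.1 (66 peaks), with 10093 and 9694 in Dia 1m and 8189, 6406 and 6967 in Dia 6d. The stages did not overlap at either. NW_013954337.1, with its cluster of lower peaks, held 747 and 860 in Dia 1m and 1063, 1599 and 1685 in Dia 6d. Without Dia 1m replicate 3, 7 scaffolds passed.

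Peaks that tell the developmental stages apart were then followed through diapause. Dev against Pre-Dia gave 186 peaks (0.27%), 114 higher and 72 lower in Dev, from libraries that enter the diapause comparison only through the spread. Both tests share the estimate of the spread of each peak. Peaks picked by 1 of them can thus more often reach an unadjusted p under 0.05 in the other, in either direction. Pre-Dia replicate 1.5 is the shallowest of the 9 libraries, with 2.99 megareads in peaks, and it stood at the floor of 1 read at 30 of the 114 peaks higher in Dev, against 520 of all peaks. Over the 114 peaks higher in Dev, the median log2 difference between Dia 1m and Dia 6d was -0.26, with 0 higher and 18 lower (15.8%, against 2.68% of all peaks) at an unadjusted p under 0.05. Over the 72 peaks lower in Dev, the median was 0.43, with 21 higher (29.2%, against 5% of all peaks) and 5 lower. The 2 lists moved apart mainly in Dia 1m replicate 2, where the medians against the Dia 6d mean were -0.54 and 0.61. In Dia 1m replicate 3 they were 0.01 and 0.21, so the shift of the peaks higher in Dev was not seen without replicate 2. Without it, 1 was higher and 1 lower among the 114 at an unadjusted p under 0.05, and 5 were higher and 4 lower among the 72. Without the 30 peaks at the floor, the median of the other 84 was -0.30. Lists rebuilt without Pre-Dia replicate 1.5 held 239 and 108 peaks, with medians of -0.31 and 0.32, and without Pre-Dia replicate 2 they held 2457 and 482, with medians of -0.11 and 0.28. Lists rebuilt without Dev replicate 1.5 shrank to 1 and 6 peaks (medians 0.22 and 0.06), and without Dev replicate 2 to 10 and 15 peaks (medians -0.23 and -0.14), so the directions were not stable there. Both medians of the full lists kept their sign after quantile normalization (-0.21 and 0.38) and with TMM factors (-0.28 and 0.41).

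Single members show the same difference between the Dia 1m libraries. The peak with the smallest p among those higher in Dev was peak_42880 (NW_013952941.1, 286122 to 286536), with 13.0 and 94.5 normalised reads in Dia 1m and 149, 141 and 133 in Dia 6d. Dev libraries held 53.6 and 28.2 and Pre-Dia libraries 2.74, the value of 1 read in replicate 1.5, and 5.88. Its 1-month libraries were below every 6-day library but far apart (log2 difference -1.95, limma adjusted p = 0.14). At peak_21397 (NW_013952555.1, 1037816 to 1038418) both 1-month libraries were low, with 23.9 and 25.9 normalised reads, against 71.5, 67.4 and 49.0 in Dia 6d (log2 difference -1.28, limma adjusted p = 0.28). Among those lower in Dev, peak_60169 was the 1 call. At peak_54997 (NW_013953588.1, 101856 to 102250) Dia 1m libraries held 484 and 452 and Dia 6d libraries 272, 125 and 113, and Dev libraries 17.9 and 23.9 against 87.7 and 66.7 in Pre-Dia (log2 difference 1.57, limma adjusted p = 0.059). At peak_23998 (NW_013952584.1, 546400 to 546543) Dia 1m libraries held 246 and 212 and Dia 6d libraries 96.0, 64.6 and 71.7, with no overlap (log2 difference 1.57, limma adjusted p = 0.062).

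**Figure D5:**
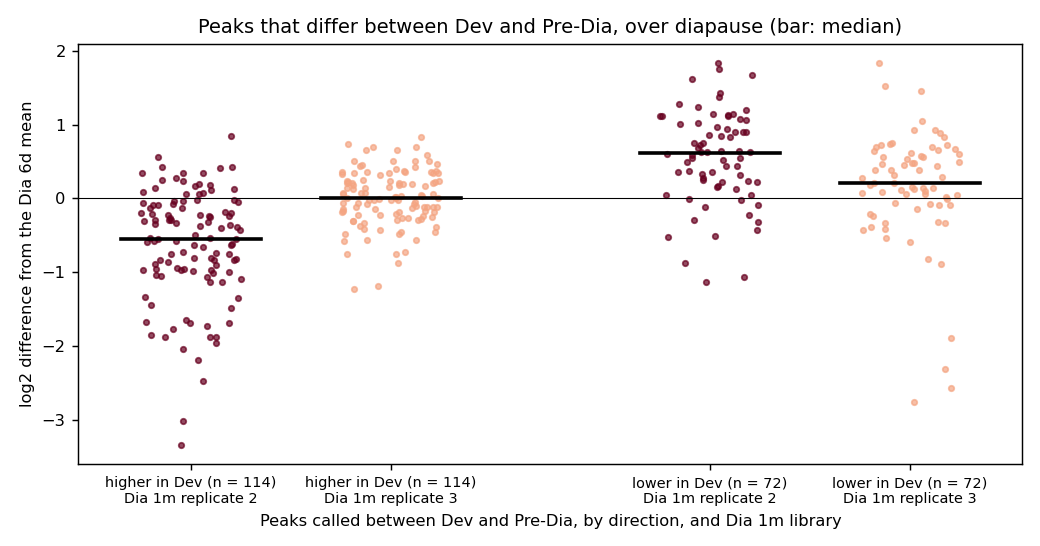
Log2 difference of each Dia 1m library from the Dia 6d mean at the 114 peaks higher in Dev than in Pre-Dia and the 72 peaks lower in Dev, 1 point a peak, with black bars at the medians. The medians were -0.54 and 0.01 (replicates 2 and 3) for peaks higher in Dev, and 0.61 and 0.21 for peaks lower in Dev.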

How the data were processed

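ATAC-seq reads of the South American killifish were trimmed with Trim Galore 0.4.1, aligned with Bowtie2 2.2.5, filtered with Picard 2.22.1 and SAMtools 1.5, shifted for Tn5 with deepTools 3.2.1 and called into peaks with MACS2 2.1.1.20160309 by the authors. They merged peaks into 1 consensus set and deposited a signal per peak and library, reads divided by a size factor, on the build Austrofundulus_limnaeus-1.0. Peak starts in the table reach 0, so they appear to count from 0; positions are printed as deposited. Divided by the lowest value of its library, each value came out whole within 0.01 reads (100% of values). Another 4 columns of the table were not used. Normalised reads were taken as log2(value + 1) and fitted with limma 3.58.1 (R 4.3.3; 9 libraries, 4 groups, trended prior, contrast Dia 1m minus Dia 6d, two-sided), with Benjamini-Hochberg adjustment over all peaks. No filter was applied. The added pseudocount shrinks the differences of weak peaks. Recovered reads were tested with edgeR 4.0.16 and DESeq2 1.42.0 in 8 libraries, leaving 1 Dia 1m library. Dia 1m replicate 3 was left out of them: its values were whole multiples too, but of a step (0.994) so near 1 that its whole reads were not accepted as recovered. Named peaks are all calls, at most 20 in each direction by size of difference. The fit was also run on simulated reads with the same dispersion at every peak and no outlying library. That setting differs from these data, so the run does not vouch for the calls here. Nearest genes and gene lists were not analysed here. The comparison, lists and tests were chosen with earlier results of these data known. Dia 1m libraries labelled replicates 1 and 1.5 were not used here. Reads without molecular identifiers are not independent molecules.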

Additional observations from a re-analysis of the deposited data

How the results depend on the processing

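The 33 calls between Dia 1m and Dia 6d became 76 with a pseudocount of 10, 145 with the 5 diapause libraries alone, 0 with a constant prior (limma, 4825 at an unadjusted p under 0.05), 9 with a robust prior and 686 with array weights. On recovered reads of 8 libraries, edgeR called 594 and DESeq2 177 peaks, with 32 and 12 of the 33 among them. Leaving out 1 library gave 0 to 236 peaks (222 without Pre-Dia replicate 1.5, 15 without Dev replicate 1.5), and 0 to 7 scaffolds in place of 0. A lone Dia 1m library was assumed to vary like the other groups. In edgeR and DESeq2 the lone library was replicate 2, as in the limma fit without Dia 1m replicate 3. These alternatives thus share the same single 1-month library and are not separate support for the calls. The count was within 1.5 times for a pseudocount of 0.5 (25), quantile normalization (27), TMM factors (27) and a minimum mean of 20 (33). The cause of these changes was not tested. No difference of a called peak reversed, which the choice of these peaks in the same libraries made likely. Dia 1m and Dia 6d share replicate numbers 2 and 3, but nothing says that equal numbers share a source. The correlation across peaks of replicate 2 minus 3 between both stages was -0.16, which cannot decide this. With the replicate number as a block, limma called 67 peaks, 987 with the diapause libraries alone, and 1 scaffold. Alternatives for the bins of strength and for the peaks that differ between Dev and Pre-Dia were added after seeing the data. The diapause libraries had a median of 49 to 65 reads per peak, and the part of depth in the count of calls was not tested.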
